A study of Danio rerio with 36 samples.

Results

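Genes whose transcripts were highest at the 21-somites stage and lower on either side of it were described in zebrafish (Danio rerio) embryos. The 100 probe sets described were selected on the 27 arrays of embryos exposed to MTBE (methyl tert-butyl ether, an oxygenate added to petrol), out of 15502 probe sets on the array. For each probe set the mean log2 signal of the 9 MTBE arrays of each stage was taken, and the members were the 100 probe sets with the largest excess of the 21-somites mean over the larger of the 6-somites and Prim-5 means, among the 6776 whose 21-somites mean was at least 4. Their excess ran between 0.28 and 0.91 with a median of 0.36 on the log2 scale, and it exceeded 0.5 in 12 members. These values chose the members and carry no test. The 3 members just inside the limit were sgk1, tut7 and lamp1b at 0.28, and klhdc4, slc39a13 and an unnamed probe set lay just outside it, also at 0.28. A total of 71 members had 1 gene symbol, for 67 genes, and 29 had none.

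All embryos were of the genotype Tg(fli1a:EGFP)y1, in which an endothelial promoter drives a green fluorescent protein, and were kept at 25 °C in sealed glass vials with exposure starting at about 3 hours post fertilization (hpf). The groups were 0.00625, 0.625 or 5 mM MTBE, against embryo media alone as the control, each collected at the stages 6-somites, 21-somites and Prim-5, which the labels place near 15, 24 and 30 hpf. The 12 groups had 3 samples each, every sample was a pool of 15 whole embryos, and the 9 control arrays played no part in choosing the members. In a lysate of whole embryos, fewer cells of a type and less RNA per cell cannot be told apart.

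Between these stages the zebrafish embryo completes most of its somites, the blocks of mesoderm that form along the trunk and tail and give rise to skeletal muscle. Myogenic regulators of the MyoD family commit somite cells to muscle and are turned down as fibres mature, while the brain is divided into regions, the ear vesicle forms, motor and sensory axons start to grow, and blood progenitors appear. A transcript that peaks in a whole embryo at such a time can belong to any of these tissues.

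Array medians lay between 3.42 and 3.64, replicate arrays correlated at 0.984 to 0.996 across probe sets, and the first principal component took 65.9% of the variance. Markers of several tissues were measured in all embryos: the mean of 18 muscle regulator genes lay between 4.18 and 4.40 on the 12 arrays of 6-somites, between 5.11 and 5.36 at 21-somites and between 5.13 and 5.24 at Prim-5. Of the controls, replicate 1 stood apart in yolk transcripts at 6-somites and again at 21-somites. The mean of 29 yolk and lipid transport genes was 5.06, 5.78 and 5.82 on the 6-somites controls, 5.22, 6.78 and 6.74 on the 21-somites controls, and 6.88, 6.99 and 6.93 on the Prim-5 controls, and apoa2, a lipoprotein gene of the yolk syncytial layer, read 4.93, 8.82 and 8.71 at 21-somites. None of the 29 genes was a member. Results on control arrays are therefore also given without these 2 arrays, called the yolk-poor controls here, in a comparison added after the data were seen. Of the MTBE arrays of 21-somites, 5 mM replicate 1 was the lowest in the 29 genes, at 6.38. The other MTBE arrays of that stage lay between 6.66 and 6.80. The array at 6.38 was kept in the choice of members and in the dose comparisons.

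The pattern was then examined in the control arrays. At 21-somites 50 of the 100 members were higher than at 6-somites at an adjusted p under 0.05, against 11.7% of all probe sets in that direction. At Prim-5 26 members were lower than at 21-somites, against 2.7% of all probe sets. Both steps passed in 18 members, against 0.258% of all probe sets, or 40 in all. The rise alone passed in 32 members, the fall alone in 8 and neither in 42. The control mean was highest at 21-somites in 88 members, against 25.1% of all probe sets, and all 3 control arrays of 21-somites lay above all 6 control arrays of the other stages in 30 members, against 1.63%. All 18 members with both steps called were among those 30. The tests were limma's moderated t on all 36 arrays, two-sided, with Benjamini-Hochberg adjustment over 15502 probe sets, and both steps share the 21-somites control arrays.

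The median control difference of the members was 0.39 for 21-somites minus 6-somites, where the median of all probe sets was -0.01, and -0.31 for Prim-5 minus 21-somites, where it was -0.04. The excess itself, recomputed in the controls, had a median of 0.24 and ran between -0.69 and 0.93. It was smaller than the MTBE excess in 74 members. The choice of the largest MTBE excesses favours that outcome, so this count does not show a weaker peak in controls. In the MTBE groups, where the excess was used for the choice, its median was 0.36 at 0.00625 mM, 0.34 at 0.625 mM and 0.37 at 5 mM. The number of members with both steps called fell to 10 without Prim-5 control replicate 3 and 11 without Prim-5 control replicate 1, and the number with a called fall was 16 without Prim-5 control replicate 3. With only the 9 control arrays in the model these numbers were 11 and 16. Without the yolk-poor controls 47 rises, 23 falls and 14 members with both steps were called, and 11 of the 18 were among those 14. The shares of all probe sets called in these refits are not given here.

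**Figure D1:**
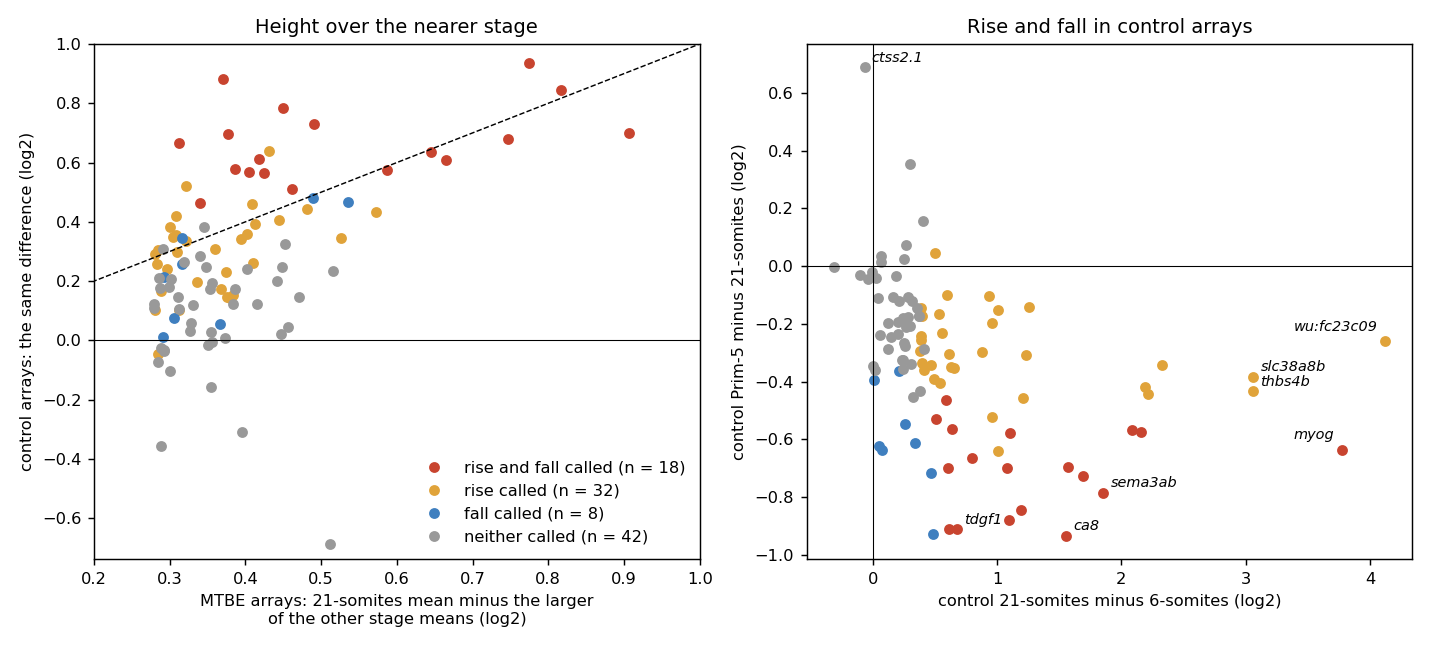
Left: excess of the 21-somites mean over the larger of the other stage means (log2) in MTBE arrays (x axis, used to choose the members) and in control arrays (y axis, not used), 1 point a member, with the line of equal values dashed. Right: for the same 100 members, control 21-somites minus 6-somites against control Prim-5 minus 21-somites (log2). The 18 members with both steps called have control excesses between 0.46 and 0.93, and ctss2.1 has the lowest control excess, -0.69.

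The label of a transient peak held unevenly. The control mean at Prim-5 stayed above that at 6-somites in 67 of the 100 members. With all arrays the rise was larger than 1 on the log2 scale in 22 members, while no member fell by more than 1. Without the yolk-poor controls the Prim-5 difference of p4ha1b was -1.08 (adjusted p = 0.00211 by limma). Among the 18 members with both steps called, only tdgf1, myod1 and 2 unnamed probe sets had a Prim-5 control mean below the 6-somites one.

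Muscle regulators were among the highest members. The member myog encodes myogenin, the MyoD family factor that drives differentiation of muscle precursors. On the 9 MTBE arrays of each stage its lowest, median and highest log2 signals were 2.55, 2.67 and 3.52 at 6-somites, 6.25, 6.40 and 6.53 at 21-somites, and 5.56, 5.68 and 5.93 at Prim-5. The control arrays read 2.60, 2.52 and 2.61 at 6-somites, 6.33, 6.37 and 6.34 at 21-somites, and 5.70, 5.85 and 5.58 at Prim-5. All 21-somites arrays lay above all Prim-5 arrays, which in turn lay far above all 6-somites arrays. In controls the rise was 3.77 ± 0.17 (SE; adjusted p = 4.99e-20) and the fall -0.64 ± 0.17 (adjusted p = 0.0126). Without Prim-5 control replicate 3 the fall was -0.57 with an adjusted p of 0.0711, so that call rests on that array. The 6-somites control mean of 2.58 lies under the brighter of the array's red fluorescent protein probe sets, 2.98, whose gene the embryos are not labelled as carrying.

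The member myod1 encodes MyoD, the factor that commits cells to the muscle lineage. Its lowest, median and highest values on MTBE arrays were 3.16, 3.3 and 3.57 at 6-somites, 3.88, 4.09 and 4.53 at 21-somites, and 3.29, 3.44 and 3.61 at Prim-5. Control arrays read 3.60, 3.46 and 3.43 at 6-somites, 4.34, 3.85 and 4.13 at 21-somites, and 3.77, 3.21 and 3.24 at Prim-5. The 3 control arrays of 21-somites were the highest of the 9, although 21-somites replicate 2 came close to Prim-5 replicate 1. The rise was 0.61 ± 0.13 (adjusted p = 0.000749) and the fall -0.70 ± 0.13 (adjusted p = 0.000428), and both passed whichever 1 control array was left out. Unlike that of myog, the Prim-5 mean of myod1, 3.40, was not above its 6-somites mean, 3.49.

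The member thbs4b encodes thrombospondin 4, a matrix protein at the ends of muscle fibres where they attach to tendon. Control arrays read 3.96, 3.29 and 3.78 at 6-somites, 6.84, 6.74 and 6.61 at 21-somites, and 6.10, 6.45 and 6.35 at Prim-5. The 3 stages did not overlap. The rise was 3.05 ± 0.20 (adjusted p = 5.98e-15), whereas the difference of -0.43 ± 0.20 at Prim-5 did not pass (adjusted p = 0.224). Of 18 measured genes in a list of muscle regulators and early somite muscle, only myod1 and myog were members. In that list 11 genes rose (11.7% of all probe sets), 4 fell (2.7%) and 2 did both (0.258%) in controls. In a list of 22 fast muscle contraction genes 17 rose, none fell (limma) and none was a member, and none of 5 slow muscle genes was a member. The lists were compiled with earlier results of these data known.

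**Figure D2:**
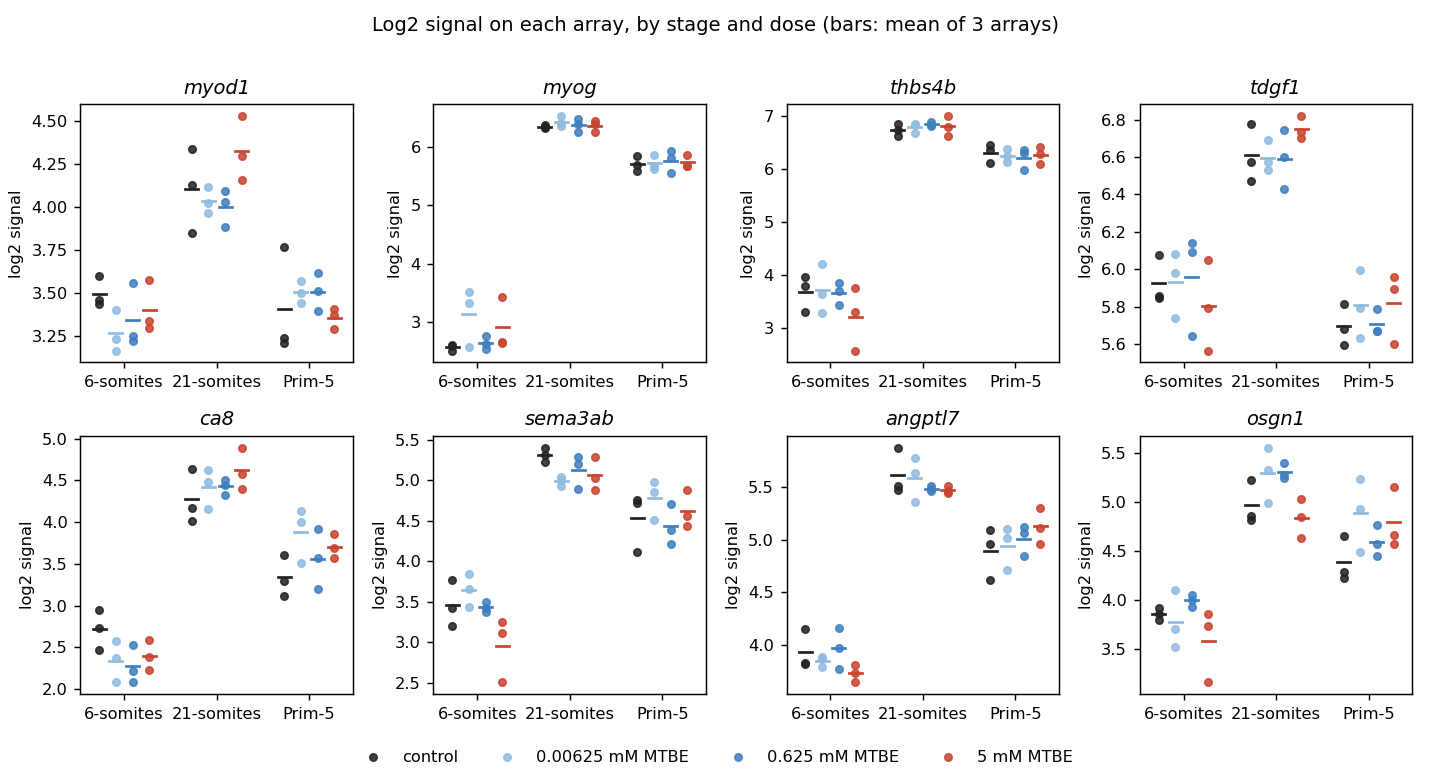
Log2 signal on every array (dots) and the mean of 3 arrays (bars) for 8 members, by stage, with the control and rising MTBE doses from left to right within each stage. At 21-somites all arrays of myog lie between 6.25 and 6.53, above all arrays of the other stages, and at Prim-5 myod1 and tdgf1 lie near their 6-somites level while the other 6 genes lie above it.

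Genes of the nervous system, ear and axon guidance formed the next group, in which 7 of 8 probe sets rose in controls and 2 fell again. The groups of members by known function used here were made after the members were seen. Over all probe sets 11.7% rose and 2.7% fell in controls, the shares to set beside the counts of each group. The member ca8 encodes a carbonic anhydrase related protein without enzyme activity, known from neurons in mammals. MTBE arrays had a lowest, median and highest signal of 2.08, 2.37 and 2.59 at 6-somites, 4.16, 4.49 and 4.89 at 21-somites, and 3.2, 3.69 and 4.13 at Prim-5. In controls the arrays read 2.73, 2.95 and 2.47, then 4.17, 4.01 and 4.64, then 3.29, 3.60 and 3.12 at the 3 stages in order. No 2 stages overlapped among the controls. The rise was 1.56 ± 0.19 (adjusted p = 2.7e-08) and the fall -0.93 ± 0.19 (adjusted p = 0.000706). This was the largest control excess of the 100 members, 0.93. Its 6-somites control mean of 2.72 lies under the red fluorescent protein probe set at 2.98, as that of myog does, so the rise is measured against a level not above that probe set.

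The semaphorin genes sema3ab and sema3d encode secreted cues that steer growing axons. For sema3ab the control arrays read 3.43, 3.2 and 3.76 at 6-somites, 5.23, 5.40 and 5.32 at 21-somites, and 4.76, 4.72 and 4.12 at Prim-5. All 3 stages were separate. The rise was 1.86 ± 0.18 (adjusted p = 1.52e-10) and the fall -0.79 ± 0.18 (adjusted p = 0.00337), and without Prim-5 control replicate 3 the fall was -0.58 with an adjusted p of 0.0674. For sema3d the control arrays read 3.24, 2.76 and 3.36 at 6-somites, 5.13, 5.49 and 5.30 at 21-somites, and 4.85, 4.96 and 4.85 at Prim-5, also without overlap. Its rise of 2.19 ± 0.17 passed (adjusted p = 7.19e-13) and its difference of -0.42 ± 0.17 at Prim-5 did not (adjusted p = 0.149).

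Of the transcription factors of brain and ear, pax5, which acts at the boundary of midbrain and hindbrain, rose by 0.96 ± 0.17 (adjusted p = 4.01e-05), with -0.20 ± 0.17 at Prim-5 (adjusted p = 0.587). A second pax5 probe set outside the members had a rise of 0.90 and a Prim-5 difference of -0.45 (adjusted p = 0.0913). The Maf family gene mafbb rose by 2.21 ± 0.23 (adjusted p = 7.89e-10). Its control arrays read 3.2, 4.33 and 4.6 at 6-somites, 5.70, 6.62 and 6.43 at 21-somites, and 5.89, 6.03 and 5.50 at Prim-5. Replicate 1 was the lowest of its group at both earlier stages. With all arrays its Prim-5 difference was -0.44 (adjusted p = 0.28), and without the yolk-poor controls it was -0.72 (adjusted p = 0.00636).

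In the ear, oc90, known in mammals as the gene of the main matrix protein of the otoconia, rose by 1.23 ± 0.17 (adjusted p = 3.04e-07). Its controls read 6.35, 6.24 and 6.47 at 6-somites, 8.05, 7.68 and 7.03 at 21-somites, and 7.15, 7.33 and 7.36 at Prim-5, so that 21-somites replicate 3 lay below every Prim-5 array. Without that array the Prim-5 difference was -0.59 (adjusted p = 0.015), against -0.31 (adjusted p = 0.315) with it. Without the yolk-poor controls, of which 21-somites replicate 1 was the highest array, it was -0.075 (adjusted p = 0.877 by limma). The rise was then 1.00 (adjusted p = 7.96e-05 by limma). The Prim-5 difference of oc90 thus depended on which 21-somites control was left out. The calcium sensor gene ncs1a was represented by a pair of members, of which 1 rose by 0.65 ± 0.16 (adjusted p = 0.00171) and the other had 0.24 ± 0.17 (adjusted p = 0.357). Without the yolk-poor controls these rises were 0.52 (adjusted p = 0.0484) and 0.041 (adjusted p = 0.915) by limma. Of 16 measured genes in a list for the inner ear and placodes, oc90 and pax5 were members, and of 36 early neuron genes none was.

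Among secreted ligands, receptors and other signalling proteins, 4 of 7 members rose (11.7% of all probe sets) and 2 fell (2.7%). The highest of them was tdgf1, which encodes the EGF-CFC coreceptor that cells need to receive Nodal signals. MTBE arrays had a lowest, median and highest of 5.57, 5.98 and 6.14 at 6-somites, 6.43, 6.69 and 6.82 at 21-somites, and 5.6, 5.79 and 6.00 at Prim-5. Control arrays read 5.85, 6.08 and 5.86 at 6-somites, 6.58, 6.78 and 6.47 at 21-somites, and 5.68, 5.6 and 5.82 at Prim-5. All 21-somites arrays were the highest, and the Prim-5 controls lay below every 6-somites control. The rise was 0.68 ± 0.14 (adjusted p = 0.000238), and the fall of -0.91 ± 0.14 had the smallest adjusted p of all members in that comparison, 9.31e-06.

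The member angptl7 encodes a secreted protein of the angiopoietin-like family. Its controls read 4.15, 3.82 and 3.82 at 6-somites, 5.88, 5.52 and 5.47 at 21-somites, and 5.10, 4.96 and 4.62 at Prim-5, with no overlap between stages. The rise was 1.69 ± 0.14 (adjusted p = 1.8e-12) and the fall -0.73 ± 0.14 (adjusted p = 0.000335). Of the others, fgfrl1a, a receptor-like binder of fibroblast growth factors, rose by 0.56 ± 0.15 (adjusted p = 0.0052), and sgk1, a kinase regulated by glucocorticoids, by 0.38 ± 0.13 (adjusted p = 0.031). The sgk1 call was lost in 4 of 6 fits that left out 1 control array each, and its adjusted p was 0.0528 in a paired fit of the 6-somites and 21-somites controls alone.

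Blood and immune genes gave 5 members, of which 4 rose and none passed the fall (limma). The factor gene myb, needed for definitive blood stem cells, had control arrays of 3.22, 3.14 and 3.24 at 6-somites, 4.41, 4.57 and 4.26 at 21-somites, and 3.88, 3.95 and 4.03 at Prim-5. The stages did not overlap. It rose by 1.21 ± 0.16 (adjusted p = 1.52e-07), and its Prim-5 difference was -0.46 ± 0.16 (adjusted p = 0.0737). The zinc finger gene ikzf1, an early marker of lymphoid progenitors, rose by 1.01 ± 0.24 (adjusted p = 0.00193), but 0.54 without the yolk-poor controls (adjusted p = 0.17). The genes zbtb16a and ets1 rose by 0.50 and 0.60. A second ets1 probe set outside the members had a difference of 0.25 that did not pass (adjusted p = 0.252 by limma). Of 21 measured white cell genes, myb and ctss2.1 were members, and of 22 red cell genes none was.

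The lysosomal protease gene ctss2.1, a cathepsin S gene placed in the white cell list, was the member in which the controls differed most from the MTBE arrays. MTBE arrays had a lowest, median and highest of 6.49, 7.0 and 7.36 at 6-somites, 6.90, 7.53 and 7.89 at 21-somites, and 6.58, 6.91 and 7.43 at Prim-5. Control arrays read 4.74, 7.42 and 7.07 at 6-somites, 3.57, 7.66 and 7.80 at 21-somites, and 6.96, 7.04 and 7.09 at Prim-5. The yolk-poor controls were by far the lowest arrays for this gene at their stages. At 21-somites, control replicate 1 minus the mean of replicates 2 and 3 was -4.16 for ctss2.1. The median of that difference was -0.13 over the 21 white cell genes and -1.58 over the 29 yolk and lipid transport genes. Which cells gave the ctss2.1 signal was not tested. Neither step passed with all arrays, at -0.06 ± 0.57 for the rise and 0.69 ± 0.57 for the Prim-5 difference. Without the yolk-poor controls the values were 0.49 (adjusted p = 0.143) and -0.70 (adjusted p = 0.038).

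Growth control and stress genes numbered 5. Both steps passed in osgn1, an oxidative stress induced growth inhibitor, at 1.11 ± 0.18 (adjusted p = 1.28e-05) and -0.58 ± 0.18 (adjusted p = 0.0468). Its controls read 3.92, 3.87 and 3.80 at 6-somites, 4.82, 4.86 and 5.23 at 21-somites, and 4.23, 4.66 and 4.29 at Prim-5. The stages were separate, but the fall lay close to the threshold and its adjusted p ranged between 0.0279 and 0.206 when 1 control array was left out, and it was 0.0519 without the yolk-poor controls. The AP-1 gene junba rose by 1.01 ± 0.16 (adjusted p = 6.61e-06) and ccng1, a target of p53, by 0.40 ± 0.14 (adjusted p = 0.0388). The ccng1 call was lost in 4 of 6 such fits. The proto-oncogene mycb and the forkhead gene foxo3b passed neither step, at 0.25 and 0.38 for the rise. In lists of 33 immediate early and 17 p53 target genes, 3 and 2 genes were members.

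A sizeable group, 14 members, encodes proteins of the secretory pathway and lysosome, such as tram1 and tram2 of the translocation channel, copb2 and copz2 of the COPI coat, the lectin chaperone calr3b and the collagen prolyl hydroxylase subunit p4ha1b. In controls 1 of the 14 rose (copb2, 0.39 ± 0.14, adjusted p = 0.0455), 2 fell (p4ha1b and calr3b) and none did both. Over all probe sets the shares were 11.7%, 2.7% and 0.258%. For p4ha1b the control arrays read 5.42, 5.28 and 5.24 at 6-somites, 5.50, 5.96 and 5.94 at 21-somites, and 5.13, 4.79 and 4.68 at Prim-5. The stages were ordered without overlap. Its fall was -0.93 ± 0.21 (adjusted p = 0.00363), and its difference of 0.48 ± 0.21 from 6-somites did not pass (adjusted p = 0.101) but did in that paired fit (adjusted p = 0.0428). For calr3b the fall was -0.39 ± 0.12 (adjusted p = 0.0299), with a highest adjusted p of 0.145 when 1 control array was left out.

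The secretory members were low in the yolk-poor 21-somites control. There 12 of 14 lay below the mean of replicates 2 and 3, with a median of -0.34 on the log2 scale, as did 9 of 10 members for junctions and actomyosin (median -0.29) and 5 of 5 for lipid and sugar metabolism (median -0.42). Among all probe sets 51.5% were lower, with a median of -0.01. In a list of 67 secretory pathway genes, chosen after values were seen, 47 were lower, with a median of -0.30. Only 8 of the 67 were members, so most of the low genes in this list lay outside the members. Because the list was chosen with values in view, it does not show how common low values are among secretory genes. By contrast 6 of the 29 unnamed members were lower (median 0.23). So were 7 of the 18 members with both steps called (median 0.15) and 30 of the 42 with neither (median -0.14). The calls used this same array, so the split between called and uncalled members is not independent of it and carries no weight. With the yolk-poor controls left out the same 2 genes fell, but the rise of copb2 did not pass (0.42, adjusted p = 0.102), while that of rrbp1b, a ribosome-binding protein of the endoplasmic reticulum, did (0.48, adjusted p = 0.0111, against 0.29 and 0.105 with all arrays). The part of the low yolk transcripts in these differences was not tested.

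**Figure D3:**
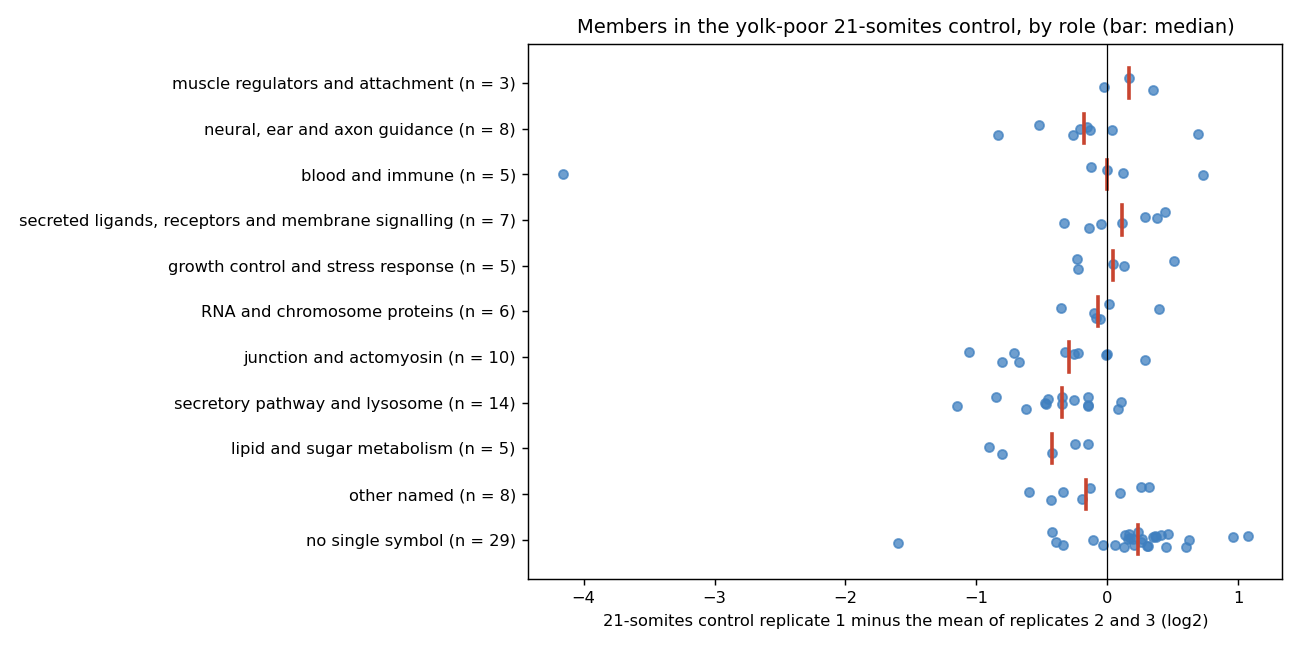
Log2 signal of 21-somites control replicate 1 minus the mean of control replicates 2 and 3 at that stage, 1 dot a member, by group of known function, with the median as a bar. Medians lie at -0.34, -0.29 and -0.42 in the secretory, junction and metabolic groups and at 0.23 in the unnamed members, and the dot near -4 is ctss2.1.

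Individual arrays show the same for several members. The gene cdk5rap3, whose product acts in protein modification at the endoplasmic reticulum, read 6.39, 7.07 and 7.30 in 6-somites controls, 6.46, 7.66 and 7.56 in 21-somites controls, and 7.55, 7.64 and 7.55 in Prim-5 controls. The COPI gene copz2 read 3.76, 4.87 and 4.97, then 4.37, 5.13 and 5.32, then 5.10, 5.05 and 5.14 in the same order of stages. In both genes replicate 1 was the lowest at 6-somites and at 21-somites, and the control mean was highest at Prim-5. The Prim-5 difference was 0.35 in cdk5rap3 and 0.16 in copz2 with all arrays, but -0.029 and -0.12 once the yolk-poor controls were left out, so that the mean was highest at 21-somites, and neither value passed with or without these arrays. The Prim-5 difference changed sign in 11 members and the rise in 3 when these arrays were left out.

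**Figure D4:**
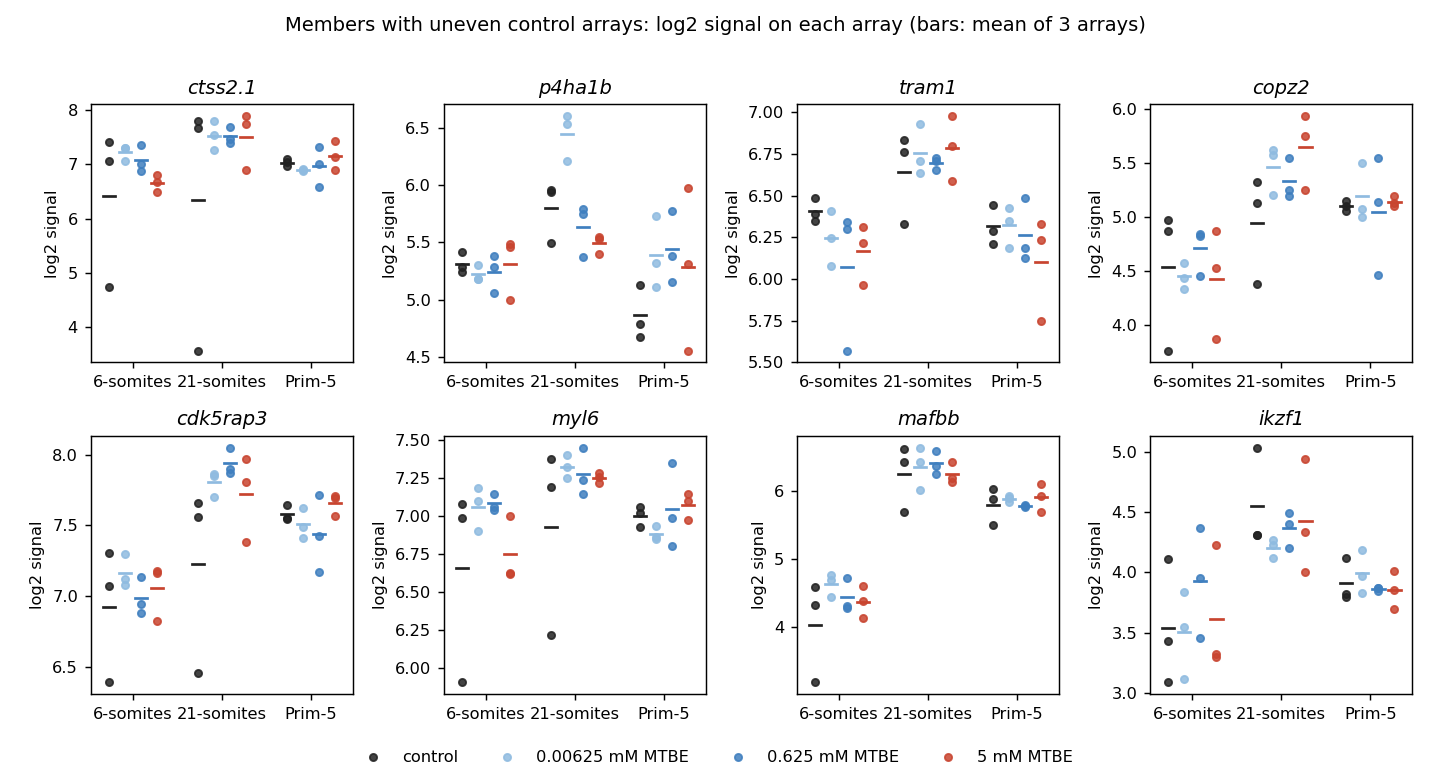
Log2 signal on every array (dots) and the mean of 3 arrays (bars) for 8 members by stage, with the control and rising MTBE doses from left to right within each stage. The control array of ctss2.1 at 3.57 and that of cdk5rap3 at 6.46, both replicate 1 at 21-somites, lie below all other 21-somites arrays of those genes.

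Proteins of cell junctions and the actomyosin cortex made up 10 members, with 2 rises (11.7% of all probe sets) and no fall (2.7%) called in controls. Of these, 3 were probe sets of cldn5a, a claudin of the tight junctions in brain epithelium and vessels, and none passed either step, with rises of 0.04, 0.32 and 0.24 and Prim-5 differences of -0.11, -0.45 and -0.18. The 2 probe sets of pdlim1, which binds actin fibres, had rises of 0.35 (adjusted p = 0.145) and 0.47 (adjusted p = 0.0324). The second of these passed both steps once the yolk-poor controls were left out (0.67, adjusted p = 0.00354, and -0.61, adjusted p = 0.00998), whereas without 21-somites control replicate 3 its rise was 0.31 (adjusted p = 0.226). The nonmuscle myosin heavy chain gene myh9a rose by 0.41 ± 0.14 (adjusted p = 0.0257), and without 6-somites control replicate 2 the value was 0.21 (adjusted p = 0.313). The adhesion gene nectin3b had control arrays of 4.34, 4.6 and 4.19 at 6-somites, 3.60, 4.01 and 4.61 at 21-somites, and 4.29, 4.01 and 3.90 at Prim-5, with no peak. The light chain gene myl6 read 5.91, 7.08 and 6.99, then 6.22, 7.37 and 7.19, then 6.93, 7.06 and 7.02 in the same order, with replicate 1 lowest at each stage. Its Prim-5 difference was 0.07, and -0.28 without the yolk-poor controls (adjusted p = 0.277).

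The 10 members with a symbol that had the largest adjusted p in either control step came from several groups. Besides ctss2.1, nectin3b and calr3b they were the kinetochore gene zwilch, the Golgi protein gene yipf4, the armadillo repeat gene pkp4, the RNA-binding protein gene hnrnpa0a, the mitochondrial phosphatase gene ptpmt1, the lipid kinase gene pi4k2b and pik3r3a, a regulatory subunit of phosphoinositide 3-kinase. For yipf4 the MTBE arrays had a lowest, median and highest of 5.88, 6.12 and 6.35 at 6-somites, 6.21, 6.50 and 6.69 at 21-somites, and 5.72, 6.11 and 6.27 at Prim-5, while controls read 6.19, 6.05 and 6.14, then 6.18, 6.16 and 6.03, then 6.09, 6.20 and 6.01. The controls overlapped at all 3 stages. Apart from calr3b, none of the 10 passed either step, and their signs turned in some of the other settings tried.

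The other groups were smaller. In RNA and chromosome proteins 2 of 6 members rose (11.7% of all probe sets). Of these, prmt3, an arginine methyltransferase of a ribosomal protein, passed both steps at 0.59 ± 0.12 (adjusted p = 0.000319) and -0.46 ± 0.12 (adjusted p = 0.0121). It is named because it passed both, after its values were seen, as are the genes of this and the unnamed group that follow. Of the 5 lipid and sugar genes, g6pc1a.2, a glucose-6-phosphatase of gluconeogenesis, rose by 1.25 ± 0.24 (adjusted p = 0.000123), and plpp1a, a lipid phosphatase, fell by 0.36 ± 0.11 (adjusted p = 0.032). In a last group of 8 named members, 6 rose and none fell. The 2 largest of these began near the floor of the array. The gene wu:fc23c09 read 1.40, 1.36 and 1.72 in 6-somites controls, 5.82, 5.39 and 5.61 in 21-somites controls, and 5.23, 5.49 and 5.33 in Prim-5 controls, with the later stages overlapping. The amino acid transporter gene slc38a8b read 1.59, 1.80 and 1.35, then 4.81, 4.49 and 4.61, then 4.19, 4.26 and 4.32, without overlap.

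The 29 unnamed members included 17 rises, 15 falls and 10 of the 18 with both steps. Over all probe sets these shares were 11.7%, 2.7% and 0.258%. Of those 10, only the members of rank 1, 2, 27 and 42 by statistic kept both calls without the yolk-poor controls. Of the 7 members that lost the call of both steps there, all but osgn1 were unnamed. The highest statistic of all belonged to an unnamed member with control arrays of 2.77, 3.13 and 2.64 at 6-somites, 3.65, 4.18 and 3.95 at 21-somites, and 2.92, 3.37 and 3.40 at Prim-5. Its 21-somites arrays were the highest, while the other stages overlapped. Its 6-somites control mean of 2.85 lies under the red fluorescent protein probe set at 2.98, which was so in 6 of the 100 members. For the unnamed member with the second-highest statistic, the rise was 1.19 ± 0.13 (adjusted p = 4e-09) and the fall -0.84 ± 0.13 (adjusted p = 1.7e-05). Among the 18 members with both steps called, the largest loss below the 6-somites level was in the unnamed member of rank 27 by statistic, with a rise of 0.61 and a fall of -0.91. By their identifiers 6 unnamed members form 3 pairs that share a number and may read the same transcript, so the members are not 100 independent genes. The named members calr3b and id:ibd1087 also share a number, although they are counted as separate genes.

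Other probe sets of the same genes were also examined. Their own values did not enter the choice, but they read genes that the MTBE arrays had chosen. For 14 member genes the array holds 18 other probe sets, of which 7 were under the level limit. The 21-somites mean was the highest of the 3 stages in MTBE arrays in 15 of the 18, a count not independent of the choice. In control arrays it was the highest in 14 of the 18, against 25.1% of all probe sets. None had both steps called by limma. For ca8 the second probe set rose by 0.54 ± 0.17 (adjusted p = 0.0222) with -0.09 at Prim-5. The second probe set of tram1 had -0.03 and -0.57, and that of ublcp1, a proteasome phosphatase gene, had 0.29 and 0.25.

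Whether the dose of MTBE altered these genes was tested by setting 5 mM against the mean of 0.00625 and 0.625 mM, a difference that the choice of members did not use. No member passed at any stage, and none passed for the height of the 21-somites mean over the mean of the other stages. Over all probe sets 0 percent passed at 6-somites, 0 at 21-somites, 0.00645 percent at Prim-5 (1 probe set) and 0 for the height (limma, adjusted p under 0.05). At an unadjusted p under 0.05 there were 12 members at 6-somites, 5 at 21-somites, 3 at Prim-5 and 5 for the height, where all probe sets gave 7.32, 2.75, 4.8 and 3.72 percent. The median standard error of these dose differences was 0.12 within a stage and 0.15 for the height. All dose results on members stayed at 0 calls in each of 9 fits that left out 1 array of a stage.

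At 6-somites 68 of the 100 members were lower and 32 higher at 5 mM than at the lower doses, with a median of -0.07, where 50.2% of all probe sets were higher. At 21-somites 63 were higher (47.6% of all probe sets), with a median of 0.04. Of the 18 members with both steps called in controls, 14 were lower at 6-somites, with a median of -0.11. Averaged over those 18 members, the 5 mM arrays at 6-somites read 3.96, 4.04 and 4.0, against 4.1, 4.14 and 4.1 at 0.00625 mM, 4.1, 4.16 and 4.09 at 0.625 mM, and 4.18, 4.12 and 4.13 in controls. The 5 mM arrays were the lowest 3 of the 12. At 21-somites the same mean was 5.45, 5.46 and 5.39 at 5 mM, against 5.40, 5.37 and 5.38 at 0.00625 mM, 5.37, 5.43 and 5.34 at 0.625 mM, and 5.58, 5.37 and 5.41 in controls, with overlap. Because the members share arrays, these means carry no test.

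The member farthest from 0 at 6-somites was sema3ab. It read 2.5, 3.11 and 3.25 at 5 mM, against 3.84, 3.43 and 3.66 at 0.00625 mM, 3.38, 3.50 and 3.42 at 0.625 mM and 3.43, 3.2 and 3.76 in controls. The 5 mM arrays lay below all arrays of the lower doses but overlapped the controls, and the difference was -0.58 ± 0.15 (adjusted p = 0.318). The smallest adjusted p of a member at this stage was 0.291, in the unnamed member of rank 86 (-0.45 ± 0.11). For thbs4b the values were 2.56, 3.75 and 3.3 at 5 mM, against 3.27, 3.64 and 4.21 at 0.00625 mM and 3.84, 3.70 and 3.42 at 0.625 mM, with overlap and a difference of -0.47.

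At 21-somites the largest difference was in p4ha1b, at -0.55 ± 0.18. It read 5.40, 5.53 and 5.55 at 5 mM, against 6.60, 6.21 and 6.53 at 0.00625 mM, 5.80, 5.75 and 5.38 at 0.625 mM and 5.50, 5.96 and 5.94 in controls. The lowest dose stood above all other groups, and the 5 mM arrays overlapped those of 0.625 mM and the controls. For osgn1 the values were 4.64, 4.85 and 5.03 at 5 mM, against 5.56, 5.00 and 5.33 at 0.00625 mM, 5.27, 5.25 and 5.41 at 0.625 mM and 4.82, 4.86 and 5.23 in controls. The difference was -0.46 ± 0.16, and the 5 mM arrays overlapped both the lowest dose and the controls. At Prim-5 the members ran between -0.31 and 0.27, with g6pc1a.2 lowest and myh9a highest.

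**Figure D5:**
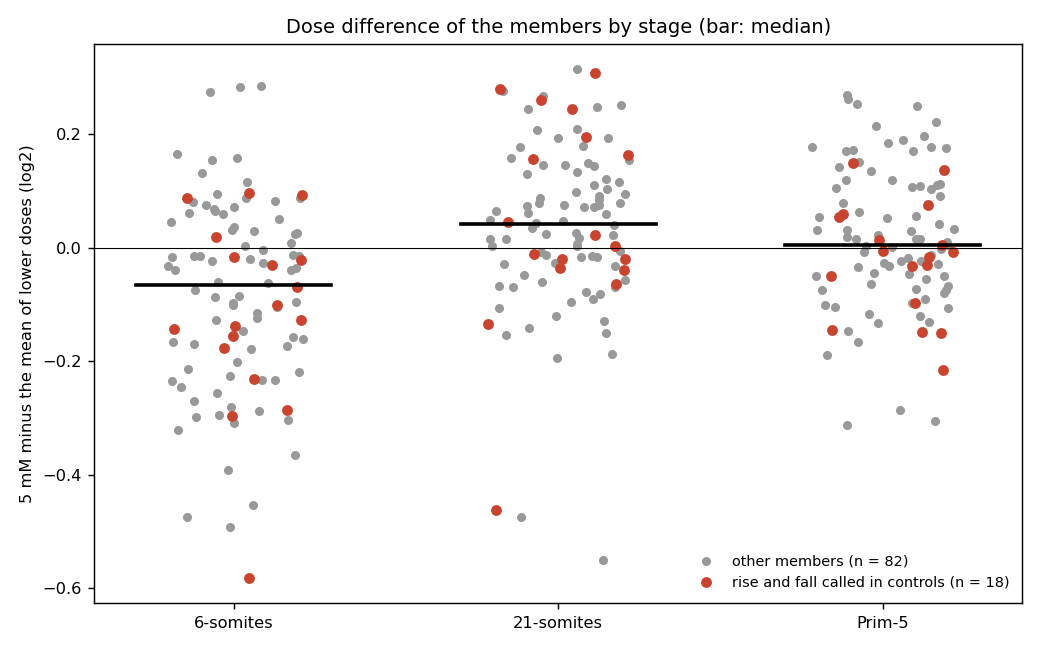
Mean log2 signal at 5 mM MTBE minus the mean at 0.00625 and 0.625 mM for each of the 100 members (dots) at each stage, with the median of all members as a bar. Medians lie at -0.07, 0.04 and 0.01, and no member passed the test at any stage.

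The choice of members also left out probe sets with a control peak. Of the 40 probe sets with both steps called in controls 18 were members (45% of the 40 and 18% of the 100), 16 lay under the level limit and 6 were above it but ranked below the 100th. The 16 included the Hox genes hoxd11a, hoxd10a, hoxa11b and hoxc11b, and the 6 included hoxb4a. In the GRCz12tu assembly table, which placed 66 of the 67 member genes, only pi4k2b with dlc1 and mycb with fam49ba were next to each other.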

How the data were processed

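The authors deposited 1 table of processed log2 values for 15617 probe sets on 36 one-colour Affymetrix arrays; per the labels, RNA was amplified and biotin-labelled with NuGEN kits. How the authors corrected, summarised and normalized the arrays is unstated in the labels, and the log2 unit was read from the values (0.599 to 13.24). The 115 manufacturer control probe sets were left out. Symbols came from the platform annotation: 10795 probe sets had 1, 135 several and 4572 none. The members and gene lists were chosen with earlier results of these data known.

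In R 4.3.3, limma 3.58.1 fitted 12 group means on all arrays, followed by eBayes. Differences are log2, later minus earlier stage or 5 mM minus lower doses, and errors are the model's SE with 3 arrays a group. A call is a Benjamini-Hochberg adjusted p under 0.05 over 15502 probe sets, two-sided. Nothing in the labels says that pools came from separate clutches, so a p-value speaks for the spread among pools alone, and the number of arrays limits the precision: the median SE was 0.14. In simulated data for the rise, only 50 of 15502 probe sets were changed at each size tried. Changes of 0.5 were called in 40% of 50 probe sets and changes of 1 in 96%. The data held 1813 called rises, so the adjustment differs and these shares need not hold there. MTBE against control was not tested, because MTBE arrays chose the members.

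Named were the 30 highest members with a symbol, members in a gene list, the 10 with the largest adjusted p in a control step, genes with several members and the threshold neighbours, and further genes were chosen after their values were seen. Same-numbered controls of 6-somites and 21-somites deviated together (correlations 0.50, 0.24 and 0.20), so the rise was also fitted with the replicate number as a block; other same-numbered arrays gave -0.11 to 0.10. Other normalizations, filters, member numbers, array weights and left-out arrays were tried. No sequences are shown because none were used here.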

Additional observations from a re-analysis of the deposited data

How the results depend on the processing

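Counts of members called in controls (50 rises, 26 falls, 18 on both sides as reported) were 50, 25 and 17 after quantile normalization, 55, 20 and 15 after cyclic loess, 55, 30 and 24 with 50 added on the linear scale, and 51, 26 and 19 with the replicate block; with the block on the 6 control arrays of the earlier stages alone 46 rises were called. Only the 9 control arrays gave 16 falls and 11 on both sides, and the reason was not tested. The top 50 members had 32 rises and the top 200 had 77, by construction of the list size, and the mean of the other stages in the rule gave 10 on both sides. Leaving out 1 control array gave 39 to 53 rises, 16 to 25 falls and 10 to 21 on both sides, and the dose comparisons gave 0 calls in members under every setting run. The shares of all probe sets called under these settings are not given here. Whether the counts of members moved with the whole array can therefore not be read from them.

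The sign changed only in named members whose difference did not pass in controls as reported, most of them within 0.1 of 0, and the cause was not tested. For 21-somites minus 6-somites, quantile normalization gave -0.054 for zwilch, 0.012 for yipf4, -0.039 for calr3b and -0.023 for ptpmt1, cyclic loess 0.049 for yipf4, 50 added on the linear scale 0.15 for ctss2.1 and array weights 0.70 for ctss2.1. Without the yolk-poor controls it was 0.49 for ctss2.1, -0.00017 for zwilch and -0.086 for ptpmt1. For Prim-5 minus 21-somites, cyclic loess gave 0.050 for nectin3b, 0.049 for yipf4, 0.019 for ptpmt1 and 0.038 for pik3r3a, array weights -0.16 for ctss2.1, 0.0073 for yipf4 and -0.032 for pi4k2b. Without the yolk-poor controls it was -0.70 for ctss2.1, 0.0076 for yipf4, -0.0035 for hnrnpa0a, -0.048 for pi4k2b, -0.029 for cdk5rap3, -0.12 for copz2 and -0.28 for myl6.

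Leaving out 1 control array, the rise lay between -0.90 and 1.32 for ctss2.1 (called without 21-somites replicate 1, adjusted p = 0.00884 by limma), -0.028 and 0.51 for an ncs1a probe set, -0.068 and 0.12 for calr3b, -0.047 and 0.15 for pi4k2b, -0.0033 and 0.13 for pkp4, -0.23 and 0.20 for ptpmt1, -0.043 and 0.044 for yipf4, and -0.052 and 0.092 for zwilch. The Prim-5 difference lay between -0.70 and 1.42 for ctss2.1, -0.44 and 0.12 for g6pc1a.2, -0.059 and 0.096 for hnrnpa0a, -0.24 and 0.26 for nectin3b, -0.37 and 0.033 for a pdlim1 probe set, -0.068 and 0.15 for pi4k2b, -0.077 and 0.027 for pik3r3a, -0.053 and 0.083 for pkp4, -0.18 and 0.11 for ptpmt1, and -0.071 and 0.024 for yipf4. With the paired 6-array fit p4ha1b gained a called rise and myh9a, ccng1, sgk1 and zgc:153240 lost theirs; the block changed no other call among the named genes.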

Other observations

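Hox genes, which pattern the body axis, had 59 probe sets for 42 genes, and 21 reached the level limit of the members. Of the 59, 5 had a control peak, against 0.258% of all probe sets. They were hoxd11a (0.75 and -0.71), hoxd10a (0.61 and -0.61), hoxa11b (0.45 and -0.57), hoxc11b (0.58 and -0.42) and hoxb4a (0.55 and -0.60). Each pair gives 21-somites minus 6-somites and Prim-5 minus 21-somites on the log2 scale. The remaining Hox probe sets had no control peak called, and some moved otherwise. Among them hoxd9a (-0.96 and -0.63) and hoxc6b (-1.01 and -0.60) fell at both steps. A hoxb8a probe set (1.18 and 0.77) rose at both. The MTBE 21-somites means of hoxa11b and hoxc11b, both 2.21, lay under the red fluorescent protein probe set at 2.98. By MTBE statistic hoxd11a, at 0.83, would have ranked among the first 3, but its 21-somites mean was 3.27. Other genes lay near it in time and below the level limit: crb1, a polarity gene of epithelia, had 1.60 and -0.70, and hey2, a Notch target of arteries, 0.62 and -0.47. The list of 67 secretory pathway genes, chosen after values were seen, held 8 members and 12 rises, 2 falls and no control peak by limma. Over all probe sets 11.7% rose, 2.7% fell and 0.258% had a control peak.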
